A study of Mus musculus with 14 samples.

Results

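The hepatocyte lineage transcription factors are the regulators that specify the liver cell and keep its adult gene program running. They were followed here as 9 of the 12394 genes named on the array, Hnf4a, Cebpa, Cebpb, Foxa1, Foxa2, Foxa3, Nr1h4, Nr5a2 and Onecut1, and every probe set that the platform annotation assigns to 1 of them was taken. That rule gave 17 of the 22690 probe sets on the array, of which 16 passed the filter on low intensity, and each of the 9 genes kept at least 1 probe set. The remaining probe set, 1449707_at of Nr5a2, stayed below the filter with group means of 4.52 to 5.02 on the log2 scale and was not tested. Each gene is represented below by its brightest kept probe set, its leading probe set, with the others beside it.

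The samples were livers of C57BL/6J mice with diet-induced obesity (DIO in the labels), hybridised to 14 Affymetrix mouse arrays. The vehicle group had 5 arrays. A second group of 4 arrays, numbered 1, 2, 3 and 5, came from livers given an adenovirus with an shRNA, a folded RNA that the cell turns into a silencing guide, directed at the jellyfish protein GFP, which mouse cells lack. The last group of 5 arrays came from livers given an adenovirus with an shRNA against Jnk1, the stress-activated kinase encoded by Mapk8. All 3 groups therefore share the obese background, and both shRNA groups share the virus. For age, sex, viral dose, time after infection, the promoter driving the hairpin and the number of hairpins per target, the sources used here give nothing. Nothing states that each array is a separate mouse, so the p-values speak only of the spread between these arrays, which may be technical in part. An adenovirus reaches several liver cell types, and whole liver was assayed, so less RNA per hepatocyte and fewer hepatocytes cannot be told apart.

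HNF4A is a nuclear receptor that sits on the regulatory regions of a large part of the hepatocyte gene program, from apolipoproteins and clotting factors to urea cycle enzymes. The C/EBP proteins are leucine zipper factors: C/EBP alpha marks the quiescent, metabolic hepatocyte, and C/EBP beta is prominent in the acute phase response and in regeneration. FOXA1, FOXA2 and FOXA3 are forkhead pioneer factors that open chromatin for the others. Nr1h4 encodes FXR, the bile acid receptor, Nr5a2 encodes LRH-1, its partner in bile acid control, and Onecut1 encodes HNF6, a cut-homeodomain factor of hepatocytes and bile duct cells. These factors bind one another's genes, so in adult liver they are usually described as a cross-regulated network.

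The promoter windows of the genes are shown first for Hnf4a, whose probe sets disagreed, for Cebpa, which rose against GFP shRNA, and for Foxa1, the only member whose window held the forkhead motif. They come from RefSeq on mouse assembly GRCm38.p6, run from 250 bases before to 50 after an annotated transcript start, and are written along the gene's own strand with matched motifs in capitals. All 9 genes had an entry, giving 13 windows. Hnf4a has separate starts at chr2:163506607-163506906 and chr2:163546905-163547204, both on the plus strand, and each holds CCAAT on the reverse strand, seen below as ATTGG. Cebpa lies at chr7:35119043-35119342 on the plus strand and holds TATAAA. Foxa1 lies at chr12:57546062-57546361 on the minus strand and holds CCAAT and, on the reverse strand, the forkhead letters TGTTTAC, seen as GTAAACA.
Hnf4a upstream start: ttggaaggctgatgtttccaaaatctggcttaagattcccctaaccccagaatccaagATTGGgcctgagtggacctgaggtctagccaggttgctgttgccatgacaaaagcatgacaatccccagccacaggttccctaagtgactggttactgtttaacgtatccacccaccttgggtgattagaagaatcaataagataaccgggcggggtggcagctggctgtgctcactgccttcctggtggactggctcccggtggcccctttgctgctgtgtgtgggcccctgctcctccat
Hnf4a downstream start: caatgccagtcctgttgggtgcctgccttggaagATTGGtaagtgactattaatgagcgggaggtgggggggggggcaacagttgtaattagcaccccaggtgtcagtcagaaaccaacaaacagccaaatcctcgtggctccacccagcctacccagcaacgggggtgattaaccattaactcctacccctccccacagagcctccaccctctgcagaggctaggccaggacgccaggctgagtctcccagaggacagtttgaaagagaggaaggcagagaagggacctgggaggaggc
Cebpa: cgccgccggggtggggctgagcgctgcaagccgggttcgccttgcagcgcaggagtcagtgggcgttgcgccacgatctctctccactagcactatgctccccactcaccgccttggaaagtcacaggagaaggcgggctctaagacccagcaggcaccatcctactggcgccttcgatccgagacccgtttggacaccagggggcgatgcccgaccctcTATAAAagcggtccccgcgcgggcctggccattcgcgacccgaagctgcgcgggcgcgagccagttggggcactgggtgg
Foxa1: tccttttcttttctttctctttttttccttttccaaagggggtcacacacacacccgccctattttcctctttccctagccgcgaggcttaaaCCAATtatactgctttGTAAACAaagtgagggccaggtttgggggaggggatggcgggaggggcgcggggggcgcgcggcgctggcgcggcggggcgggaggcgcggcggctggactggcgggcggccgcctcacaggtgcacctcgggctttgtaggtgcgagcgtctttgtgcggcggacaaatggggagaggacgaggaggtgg

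Counted from the start, Cebpa's TATAAA begins at position -30, and Foxa1's forkhead match begins at -141 and its CCAAT at -157. Over all 13 windows, CCAAT stood in 6, against 37.4% of the 32851 windows in the table. TATAAA stood in 5, against 13.6% of all windows, and TGTTTAC in 1, against 3.65%. Only the TATAAA of Cebpa (-30) and Foxa3 (-36) lay shortly before the start on the gene's own strand. That of Cebpb began at 22, and those of Foxa2 (-208) and Nr5a2 (-181) were on the reverse strand. Some genes also gave more than 1 window, so the windows are not separate cases. No window held TTGCGCAA for C/EBP, CAAAGTCCA for HNF4, the palindromic elements of HNF1 and FXR, TCAAGGTCA for LRH-1, ATCGAT for ONECUT factors, TGACTCA for AP-1 or TGACGTCA for CREB. Over all windows TGACTCA stood in 5.2%, TGACGTCA in 1.79% and each of the others in 0.925% or fewer. With strings this rare, their absence from 13 windows says nothing about sites for these factors. Both strands were searched for each motif. The base composition of the windows ranged from 42% G and C at an Nr5a2 start to 80.7% at Cebpb, with a median of 52.7% over all windows. A match is only a run of letters, and the arrays measured no binding.

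The target check came out in the direction of the labels. Mapk8 averaged 6.07 on the Jnk1 shRNA arrays, 7.38 on the GFP shRNA arrays and 7.47 on the vehicle arrays, so Jnk1 shRNA held 40.2% of the GFP level (log2 difference -1.31 ± 0.11, SE; limma adjusted p = 3.5e-07). Array medians as deposited ranged from 41.8 to 58.3, and the highest belonged to GFP array 2, whose mean correlation with its own group, 0.942, was also the lowest of the 14. The spike-in controls, RNAs of known amount added before hybridisation, read 8.77 to 9.03 on the vehicle arrays, 8.83 to 9.01 on the GFP arrays and 7.89 to 8.76 on the Jnk1 arrays. Jnk1 arrays 1 to 5 read 7.89, 8.76, 8.31, 8.35 and 8.50, so only array 2 came near the controls. The ratio of Gapdh 3' to 5' signal, a sign of RNA quality, was 0.702 ± 0.031 for vehicle (SD, n = 5), 0.686 ± 0.020 for GFP (SD, n = 4) and 0.735 ± 0.021 for Jnk1 (SD, n = 5). Every Jnk1 array (0.708 to 0.758) lay above every GFP array (0.656 to 0.698) and overlapped vehicle (0.668 to 0.750), and the part of RNA quality in the comparisons was not tested.

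The reading of the most abundant hepatocyte products depended on the scaling. After quantile normalization the 10 hepatocyte markers summed to 15.55 to 15.67 on the log2 scale on every array, and 2 fell against GFP and 4 against vehicle (medians -0.03 and 0.00). On the scale as deposited, 9 of 10 fell against GFP and 10 of 10 against vehicle (medians -0.40 and -0.42), and with arrays at the same median 1 and 6 fell (medians -0.24 and -0.39). Alb, encoding albumin, averaged 12.43 under Jnk1 shRNA, 12.47 under GFP shRNA and 12.42 under vehicle, and Ttr, encoding transthyretin, differed by 0.07 ± 0.04 from GFP (SE; limma adjusted p = 0.172). Quantile normalization sets the level of such top-ranked probe sets by rank, so the quantile normalized values carry little information on their changes. All 5 cholangiocyte markers on the array lay below the filter, with a summed level of 5.05 to 7.04.

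Against GFP the members were called in both directions, at a share near that of all probe sets tested. Between Jnk1 and GFP shRNA, 5 of the 16 tested probe sets were called at a limma adjusted p under 0.05, or 31.2%, against 33.1% of all 13575 probe sets tested. Of these, 3 rose (Cebpa, Foxa2 and Nr1h4; 17.3% of all rose) and 2 fell, both of Hnf4a (15.8% of all fell). Between Jnk1 shRNA and vehicle, 8 of 16 were called (50%, against 37.6% of all), 1 higher and 7 lower (18.9% and 18.7% of all). By leading probe set, 4 of the 9 genes were called against GFP (34.1% of all 8027 genes were) and 5 of 9 against vehicle (38.6% of all). Both counts against GFP and vehicle rest on the same Jnk1 arrays. With spike-in level as a covariate 2 probe sets were called against GFP, both of Hnf4a, and 4 against vehicle, where 16% and 21.1% of all were. All of these member calls were lower, and no rise was called. The median log2 difference over the 16 probe sets was -0.07 from GFP and -0.30 from vehicle, beside -0.01 and -0.02 over all probe sets tested.

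**Figure D1:**
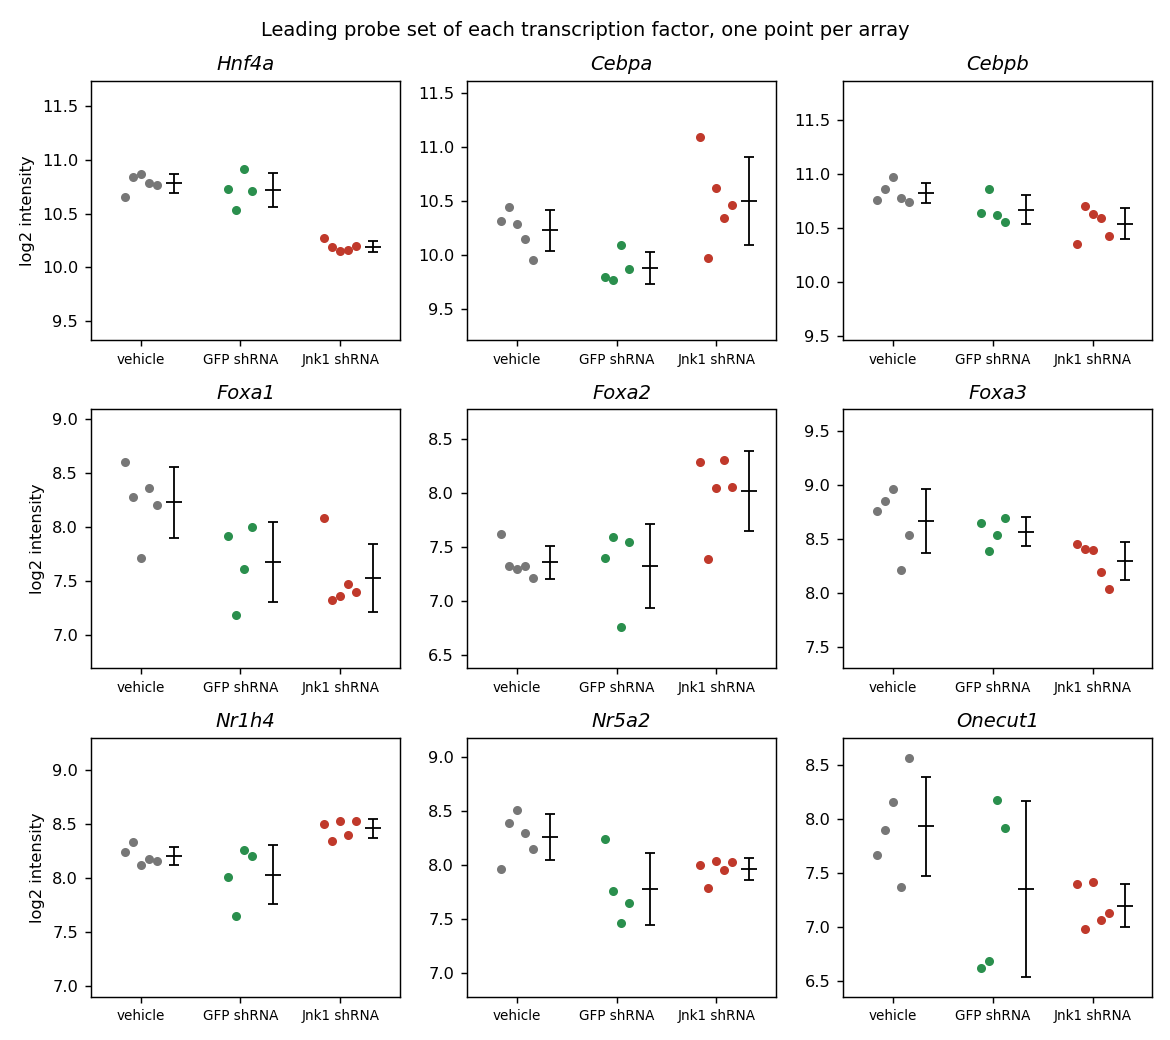
Each panel plots the log2 quantile normalized intensity of a member's leading probe set on the 14 arrays, by group (vehicle, GFP shRNA, Jnk1 shRNA), with a point per array and a black bar for the mean ± SD. Hnf4a sat at 10.15 to 10.27 on all 5 Jnk1 arrays, below every control array, whereas Cebpa and Foxa2 spread widely within the Jnk1 group and Onecut1 within both control groups.

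The control virus was set against vehicle next. Between GFP shRNA and vehicle, 0 of the 16 probe sets were called by limma, against 2.58% of all, and 4 had an unadjusted p under 0.05 (15.3% of all had). Those 4 were Cebpa, Foxa1 and a pair of Nr5a2 probe sets. All 16 differences were negative in sign, while 54% of all probe sets were. The largest was Onecut1, at -0.58 ± 0.30 (SE; limma adjusted p = 0.375), followed by Foxa1, at -0.56 ± 0.20 (SE; limma adjusted p = 0.173), and Nr5a2, at -0.49 ± 0.14 (SE; limma adjusted p = 0.0873). Since both contrasts with GFP use the same 4 GFP arrays, a gene with low GFP values shows a smaller fall, or a larger rise, against GFP than against vehicle.

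**Figure D2:**
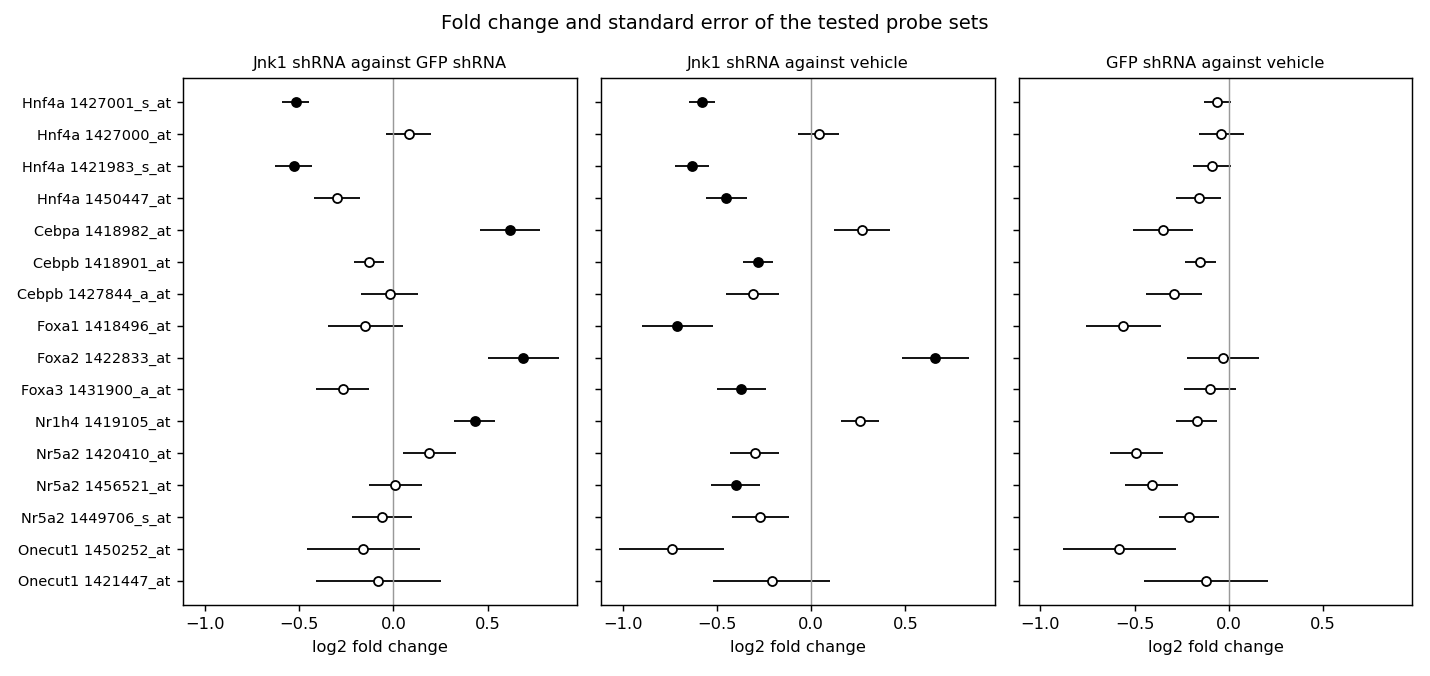
The log2 differences of the tested member probe sets are plotted for the 3 comparisons, with bars for the standard error and filled points where the limma adjusted p was under 0.05. Filled points lie on both sides of 0 for Jnk1 against GFP, mostly below 0 for Jnk1 against vehicle, and nowhere for GFP against vehicle.

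Hnf4a, the network's central nuclear receptor, fell on its brightest probe set. With 1427001_s_at the vehicle arrays read 10.65, 10.84, 10.87, 10.78 and 10.76, the GFP arrays 10.73, 10.53, 10.91 and 10.71, and the Jnk1 arrays 10.27, 10.19, 10.15, 10.16 and 10.20. All Jnk1 arrays lay below all control arrays, and the Jnk1 values were the tightest of the 3 groups (SD 0.05, n = 5, against 0.09 and 0.15). The Jnk1 level was 69.5% of GFP (-0.52 ± 0.07, SE; limma adjusted p = 2.94e-05) and 66.8% of vehicle (-0.58 ± 0.07, SE; limma adjusted p = 3.62e-06). When arrays were only scaled to the same median, the difference from GFP was -0.36 and no longer passed (adjusted p = 0.0819). With that scaling the median difference of all probe sets became 0.09, and 72.3% of the probe sets called against GFP were higher, compared with 52.3% in the quantile normalized values.

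The other Hnf4a probe sets did not all follow. On 1421983_s_at the vehicle arrays read 9.79, 9.73, 9.65, 9.70 and 9.59, the GFP arrays 9.60, 9.79, 9.47 and 9.54, and the Jnk1 arrays 9.31, 9.06, 9.16, 8.74 and 9.08. Again no Jnk1 array reached a control array, with a difference of -0.53 ± 0.10 from GFP (SE; limma adjusted p = 0.000581) and -0.63 ± 0.09 from vehicle (SE; limma adjusted p = 5.69e-05). On 1450447_at the Jnk1 group differed from vehicle by -0.45 ± 0.11 (SE; limma adjusted p = 0.00451) and from GFP by -0.30 ± 0.12 (SE; limma adjusted p = 0.0683). At the same median its difference from vehicle was -0.38 and did not pass (limma adjusted p = 0.0582). Its difference from GFP passed in 2 of 11 alternative settings and in 2 of 14 fits leaving out an array. On 1427000_at the groups overlapped fully, at 9.37 to 9.85 for vehicle, 9.14 to 9.78 for GFP and 9.48 to 9.73 for Jnk1. Its difference from GFP was 0.08 ± 0.12 (SE; limma adjusted p = 0.649), with a 95% interval of -0.17 to 0.32.

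Of the 3 Hnf4a probe sets that were lower against vehicle, 1427001_s_at is listed in the platform annotation under the same source sequence as 1427000_at, and the other 2 share another. Within each array, 1427001_s_at stood above 1427000_at by 1.24 ± 0.18 on vehicle (SD, n = 5), 1.22 ± 0.14 on GFP (SD, n = 4) and 0.61 ± 0.11 on Jnk1 (SD, n = 5). The Jnk1 gaps, 0.47 to 0.74, did not reach the control gaps, 1.02 to 1.47. This gap does not depend on a constant scaling of the array, was chosen after its values were seen and is given without a test. It shows that signal from the probe sets of this gene changed unequally. The sources used here do not say which part of the transcript, or which product of the separate starts printed above, each probe set reads.

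**Figure D3:**
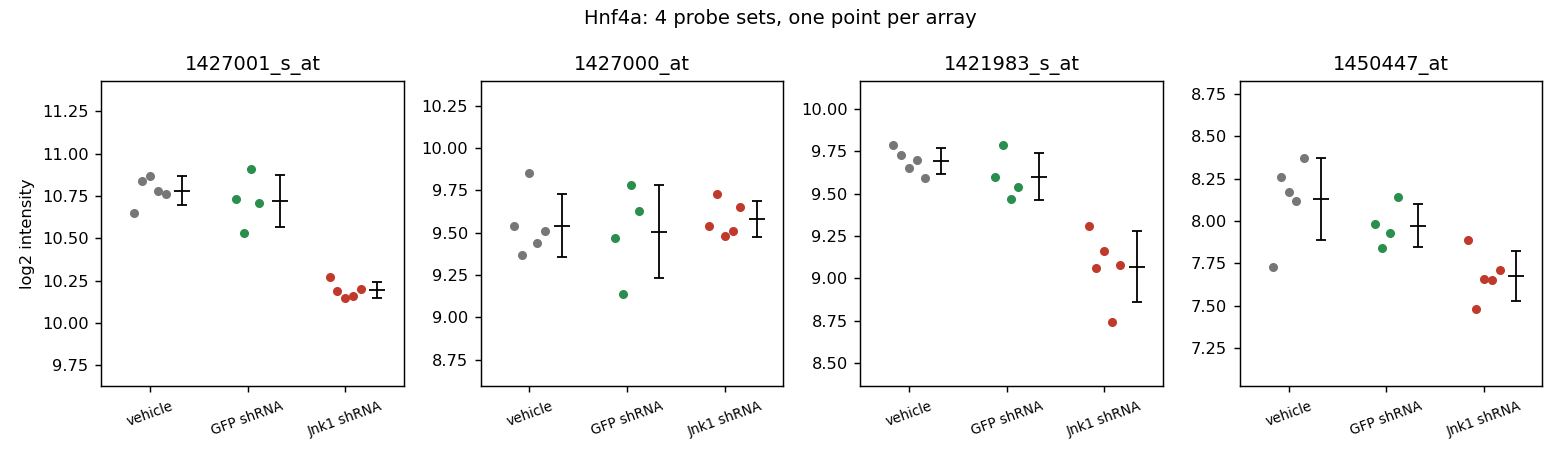
The 4 Hnf4a probe sets are plotted by group as log2 quantile normalized intensity, with a point per array and a black bar for the mean ± SD. The Jnk1 arrays lie below both control groups on 1427001_s_at and 1421983_s_at and among them on 1427000_at.

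Cebpa, the factor of the quiescent hepatocyte, rose against the control virus, while its difference from vehicle passed only without Jnk1 array 2. The vehicle arrays read 10.31, 10.44, 10.28, 10.14 and 9.95, the GFP arrays 9.79, 9.76, 10.09 and 9.87, and the Jnk1 arrays 11.09, 9.97, 10.62, 10.34 and 10.46. Jnk1 array 1 was the highest of all, Jnk1 array 2 lay within the GFP range, and the Jnk1 group spread more than either control (SD 0.41, against 0.19 and 0.15). The level was 1.53-fold that of GFP (0.62 ± 0.16, SE; limma adjusted p = 0.00803), while the difference from vehicle was 0.27 ± 0.15 (SE; limma adjusted p = 0.186) and became 0.40 without Jnk1 array 2 (limma adjusted p = 0.0299).

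Spike-in level moved with this result. Cebpa was highest on Jnk1 array 1, which had the lowest spike-in level of the series, 7.89, and lowest of its group on Jnk1 array 2, which had the highest of that group, 8.76. With spike-in level as a covariate, the Cebpa difference was 0.00 from GFP (limma adjusted p = 0.998) and -0.35 from vehicle (limma adjusted p = 0.123). Jnk1 array 2 taken alone against all control arrays, an alternative chosen after seeing the data in which its spread is assumed equal to that of the other groups, gave 0.09 from GFP (limma adjusted p = 0.799). Because spike-in level and group largely coincide, their parts in the rise cannot be told apart.

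**Figure D4:**
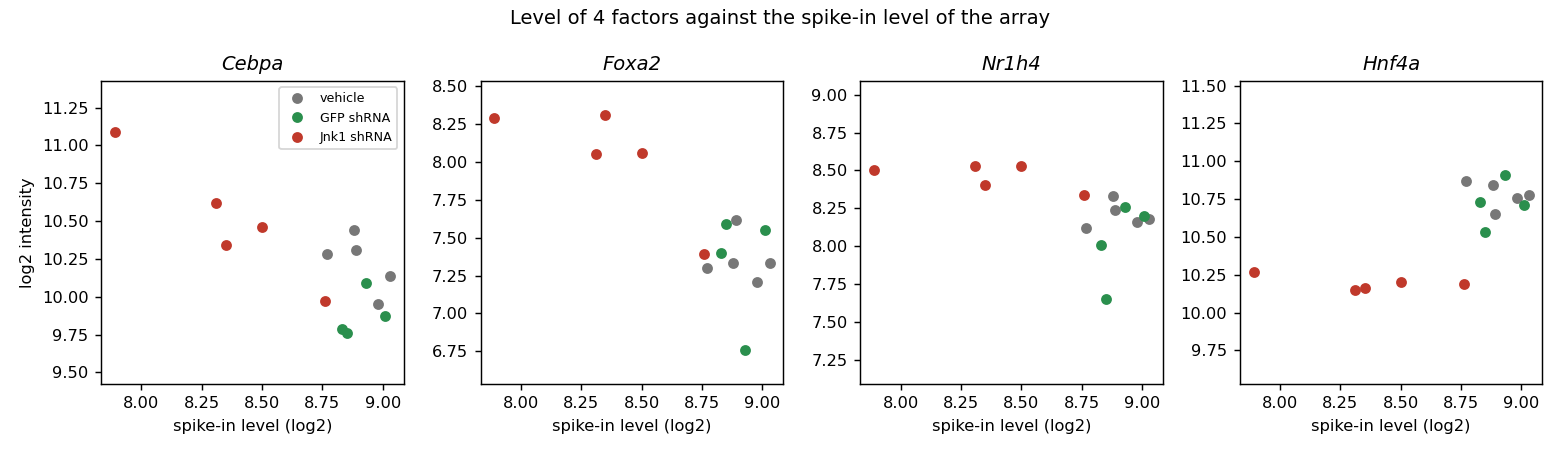
Log2 intensities of Cebpa, Foxa2, Nr1h4 and Hnf4a (leading probe sets) are plotted against the mean log2 level of the spike-in controls, with a point per array coloured by group. Within the Jnk1 arrays, the array nearest the controls in spike-in level, array 2 at 8.76, is the lowest for Cebpa, Foxa2 and Nr1h4, while Hnf4a is low on all 5.

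Cebpb, the C/EBP of the acute phase, was lower than vehicle only. On 1418901_at the vehicle arrays read 10.76, 10.86, 10.97, 10.78 and 10.74, the GFP arrays 10.64, 10.86, 10.62 and 10.55, and the Jnk1 arrays 10.35, 10.70, 10.63, 10.59 and 10.42. No Jnk1 array reached the vehicle range, and 3 of the 4 GFP arrays lay below it as well. The difference was -0.28 ± 0.08 from vehicle (SE; limma adjusted p = 0.00813) and -0.13 ± 0.08 from GFP (SE; limma adjusted p = 0.246, 95% interval -0.30 to 0.05). The second probe set, 1427844_a_at, gave -0.31 ± 0.14 from vehicle (SE; limma adjusted p = 0.0884) and -0.02 ± 0.15 from GFP (SE; limma adjusted p = 0.924). The call against vehicle did not hold with spike-in level as a covariate (-0.19, limma adjusted p = 0.312).

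The balance of the C/EBP paralogs can be read within each array, where a constant scaling cancels. Cebpb minus Cebpa was 0.60 ± 0.16 on vehicle (SD, n = 5), 0.79 ± 0.24 on GFP (SD, n = 4) and 0.04 ± 0.53 on Jnk1 (SD, n = 5). The Jnk1 mean differed by -0.75 from GFP and by -0.55 from vehicle, each with p = 0.0476 by an exact two-sided permutation test and 0.0714 after Benjamini-Hochberg adjustment over the 9 ratio comparisons made. Neither difference passed that adjustment. The smallest p these designs allow is 0.0159 for 5 arrays against 4 and 0.00794 for 5 against 5. After adjustment over the 9 comparisons, a single ratio at either p could not pass on its own.

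The forkhead pioneer factors went different ways. Foxa1 read 8.60, 8.28, 7.71, 8.36 and 8.20 on vehicle, 7.92, 7.18, 7.61 and 8.0 on GFP, and 8.08, 7.32, 7.36, 7.47 and 7.40 on Jnk1. Jnk1 and GFP arrays overlapped, and 4 of the 5 Jnk1 arrays and 2 of the 4 GFP arrays lay below the vehicle range. Foxa1 was at 61.2% of vehicle under Jnk1 shRNA (-0.71 ± 0.19, SE; limma adjusted p = 0.0065) and differed from GFP by -0.15 ± 0.20 (SE; limma adjusted p = 0.587, 95% interval -0.57 to 0.27). As given above, the GFP group itself differed from vehicle by -0.56 without passing.

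Foxa2, which in liver also drives fasting and bile acid genes, rose. The vehicle arrays read 7.62, 7.33, 7.30, 7.33 and 7.21, the GFP arrays 7.40, 7.59, 6.76 and 7.55, and the Jnk1 arrays 8.29, 7.39, 8.05, 8.31 and 8.06. Of the Jnk1 arrays, 4 lay above all control arrays and array 2 lay among them. The rise was 1.62-fold over GFP (0.69 ± 0.19, SE; limma adjusted p = 0.00966) and 0.66 ± 0.18 over vehicle on the log2 scale (SE; limma adjusted p = 0.00721). With spike-in level as a covariate it was 0.23 over GFP (limma adjusted p = 0.606) and 0.19 over vehicle (limma adjusted p = 0.648), and array 2 alone gave 0.06 and 0.04. As for Cebpa, the parts of spike-in level and group cannot be told apart.

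Foxa3, a forkhead factor of liver and gut, read 8.76, 8.85, 8.96, 8.21 and 8.54 on vehicle, 8.65, 8.39, 8.54 and 8.69 on GFP, and 8.45, 8.41, 8.40, 8.19 and 8.04 on Jnk1. The Jnk1 arrays overlapped both control groups. The difference was -0.37 ± 0.13 from vehicle (SE; limma adjusted p = 0.0333) and -0.27 ± 0.14 from GFP (SE; limma adjusted p = 0.144). The call against vehicle was lost when vehicle array 1, 2 or 3, or Jnk1 array 4 or 5, was left out, with differences of -0.34 to -0.29. It was also lost with the intensities as deposited (-0.32, limma adjusted p = 0.0656), at the same median (-0.29, limma adjusted p = 0.182) and without the filter (-0.37, limma adjusted p = 0.055). With spike-in level as a covariate the difference was larger, -0.56, and had a limma adjusted p of 0.0631.

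Within arrays, Foxa1 minus Foxa2 was 0.88 ± 0.26 on vehicle (SD, n = 5), 0.35 ± 0.54 on GFP (SD, n = 4) and -0.49 ± 0.33 on Jnk1 (SD, n = 5). The Jnk1 mean differed by -1.37 from vehicle, with no overlap and p = 0.00794 by the exact permutation test, the smallest possible, and by -0.84 from GFP (exact permutation p = 0.0476). Foxa3 minus Foxa2 was 1.31 ± 0.31, 1.24 ± 0.41 and 0.28 ± 0.45 in the same order (SD, n = 5, 4 and 5), with exact permutation p = 0.0159 against vehicle and 0.0317 against GFP. All 4 of these had an adjusted p of 0.0714 and did not pass. With 9 comparisons adjusted together, a single ratio could not pass on its own, even at the smallest possible p. Without Jnk1 array 2, the ratios of Foxa1 and of Foxa3 to Foxa2 and of Cebpb to Cebpa each differed from vehicle with a permutation adjusted p of 0.0476. That array was the Jnk1 array nearest the controls in spike-in level. It lay within the vehicle range for Cebpb minus Cebpa (0.73) and Foxa3 minus Foxa2 (1.02), and below it for Foxa1 minus Foxa2 (-0.08). The part of spike-in level in the ratios was not tested. In the group means Foxa2 thus gained on both of its paralogs, without a call after adjustment when all arrays were used.

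Nr1h4, the bile acid receptor FXR, was slightly raised. The vehicle arrays read 8.24, 8.33, 8.12, 8.18 and 8.16, the GFP arrays 8.01, 7.65, 8.26 and 8.20, and the Jnk1 arrays 8.50, 8.34, 8.53, 8.40 and 8.53. Every Jnk1 array lay above every control array, array 2 by the least. The level was 1.35-fold that of GFP (0.43 ± 0.11, SE; limma adjusted p = 0.00562), and the difference from vehicle was 0.26 ± 0.10 (SE; limma adjusted p = 0.0572). The difference from vehicle passed in 3 of 11 alternative settings and in 3 of 14 fits leaving out an array. With spike-in level as a covariate the difference from GFP was 0.42, with a limma adjusted p of 0.112, and array 2 alone gave 0.31. Counted over probe sets, Nr1h4 and the pair of Hnf4a probe sets were the 3 of 16 that did not overlap between Jnk1 and GFP, where 28.1% of all probe sets did not. Against vehicle 5 of 16 did not overlap, where 27.7% of all did not.

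Nr5a2, encoding LRH-1, had its lowest group mean under the control virus on its leading probe set, where no comparison was called. On 1420410_at the vehicle arrays read 7.96, 8.39, 8.51, 8.30 and 8.15, the GFP arrays 8.24, 7.76, 7.46 and 7.65, and the Jnk1 arrays 8.0, 7.79, 8.04, 7.95 and 8.03. The Jnk1 arrays sat between the group means of vehicle and GFP and overlapped both groups. Their difference was -0.30 ± 0.13 from vehicle (SE; limma adjusted p = 0.0893) and 0.19 ± 0.14 from GFP (SE; limma adjusted p = 0.324). GFP array 1 decided much of this: without it, GFP differed from vehicle by -0.64 (limma adjusted p = 0.00942), and Jnk1 differed from GFP by 0.34 (limma adjusted p = 0.044). Leaving out vehicle array 1 also gave a call of GFP against vehicle, at -0.56 (limma adjusted p = 0.0418).

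The second Nr5a2 probe set, 1456521_at, was called against vehicle, at -0.40 ± 0.13 (SE; limma adjusted p = 0.0266). Its Jnk1 arrays, 7.64 to 7.82, lay just under the lowest vehicle array, 7.83. That call was lost without vehicle array 2, 3 or 4 or Jnk1 array 3 (limma adjusted p up to 0.0757), at the same median (-0.32, limma adjusted p = 0.128) and with spike-in level as a covariate (-0.51, limma adjusted p = 0.114). The third, 1449706_s_at, gave -0.27 ± 0.15 from vehicle (SE; limma adjusted p = 0.163) and -0.06 ± 0.16 from GFP (SE; limma adjusted p = 0.798).

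Onecut1, encoding HNF6, varied most within the control groups. On 1450252_at the vehicle arrays read 7.67, 7.90, 8.16, 7.37 and 8.57, the GFP arrays 6.62, 6.68, 8.18 and 7.92, and the Jnk1 arrays 7.40, 6.98, 7.42, 7.06 and 7.13. The GFP group split into a low pair and a high pair, with an SD of 0.82 against 0.46 on vehicle and 0.20 on Jnk1. The difference was -0.74 ± 0.28 from vehicle (SE; limma adjusted p = 0.0503) and -0.16 ± 0.30 from GFP (SE; limma adjusted p = 0.722, 95% interval -0.79 to 0.48). The value against vehicle lay beside the threshold. It passed in 5 of 11 alternative settings, with the lowest limma adjusted p, 0.00762, in a fit of only the Jnk1 and vehicle arrays. It also passed in 5 of 14 fits leaving out an array.

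The second Onecut1 probe set, 1421447_at, showed the same high and low arrays in the controls. The vehicle arrays read 6.73, 6.79, 7.76, 6.95 and 7.96, the GFP arrays 6.54, 6.31, 7.77 and 7.84, and the Jnk1 arrays 7.51, 6.96, 6.72, 6.85 and 7.10. Vehicle arrays 3 and 5 and GFP arrays 3 and 5 were the highest 4 of the series on both probe sets, and GFP arrays 1 and 2 the lowest 2 on both. Its group differences were small, -0.21 ± 0.31 from vehicle (SE; limma adjusted p = 0.635) and -0.08 ± 0.33 from GFP (SE; limma adjusted p = 0.87). The wide spread of Onecut1 among the control arrays was thus read by both probe sets.

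**Figure D5:**
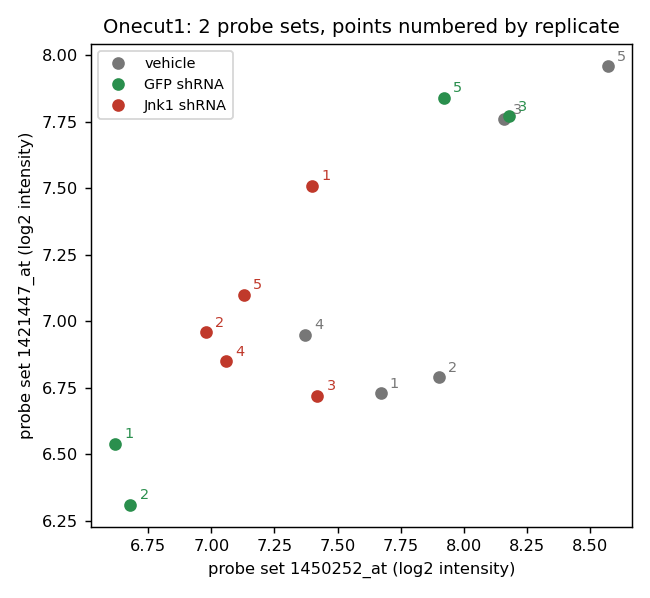
The log2 intensities of both Onecut1 probe sets are plotted against each other, with a point per array, coloured by group and numbered by replicate. Vehicle arrays 3 and 5 and GFP arrays 3 and 5 lie together at the upper right, and GFP arrays 1 and 2 at the lower left.

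Partners and relatives of the members moved in both directions. Of 16 tested, 2 rose and 1 fell against GFP, where 34.1% of all genes were called. Against vehicle 3 rose and 2 fell, where 38.6% of all genes were called. The list's medians were 0.08 and 0.06. The largest rise was Nr0b2, which encodes SHP, the corepressor that FXR induces and that inhibits LRH-1 and HNF4A. It read 5.16, 6.67, 6.65, 3.39 and 5.96 on vehicle, 5.90, 6.39, 6.44 and 5.84 on GFP, and 8.17, 8.56, 8.25, 8.29 and 8.41 on Jnk1. All Jnk1 arrays lay above all controls, 2.20 ± 0.48 over GFP (SE; limma adjusted p = 0.00214) and 2.77 ± 0.45 over vehicle (SE; limma adjusted p = 0.000139). With spike-in level as a covariate the difference from GFP was 1.89 (limma adjusted p = 0.113), and array 2, the Jnk1 array closest to the controls in that level, had the highest value. Trib1, a scaffold that directs C/EBP alpha to degradation, fell by 1.71 against GFP and fell by 1.91 against vehicle. Prmt1, an arginine methyltransferase coactivator, rose by 0.35 and 0.33, and Rxra, the heterodimer partner of FXR, fell by 0.44 against vehicle. Ppargc1a, a coactivator of HNF4A, was the single gene of the list to pass between GFP and vehicle, lower by 0.60 ± 0.14 in GFP on the log2 scale (SE; limma adjusted p = 0.0343).

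Among 27 other liver-enriched transcription factors tested, 10 fell and 1 rose against GFP, and 11 fell and 1 rose against vehicle. Of all genes, 16.5% fell and 17.7% rose against GFP, and 19.3% fell and as many rose against vehicle. The list was drawn up with earlier results of these data known, so setting its counts beside all genes is no test of the list. With arrays at the same median, 9 fell and 3 rose against GFP, and on the deposited scale 11 fell and 1 rose. The list's medians were nearer 0, at -0.05 and -0.34. The factors that fell included Atf5 (-1.65 from GFP, -2.03 from vehicle), a stress-responsive leucine zipper factor, and Zbtb20 (-1.50 and -1.46), a repressor of Afp in adult liver. They also included Nr1i3 (-1.39 and -1.84), encoding the xenobiotic receptor CAR, Nfib (-1.01 and -1.34), Hhex (-0.95 and -1.09), a homeobox gene of liver bud outgrowth, and Creb3l3 (-0.51 and -0.47), which encodes a fasting-responsive factor. Prox1, a homeobox gene of the hepatoblast, was the single riser in both, by 0.84 against GFP and 0.69 against vehicle. Between GFP and vehicle none of the 27 was called by limma, and 8 had an unadjusted p under 0.05.

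Textbook targets of the members were mixed. Of 22 HNF4A targets tested, 7 fell and 1 rose against GFP, where 34.1% of all genes were called. Against vehicle 9 fell and 3 rose, where 38.6% of all genes were called. The same shares of all genes stand beside the target lists below. Apom, an HDL apolipoprotein, fell by 0.81 against GFP, Agxt, a glyoxylate enzyme, by 0.63, Cyp27a1, a sterol hydroxylase, by 0.51, and Otc, of the urea cycle, by 0.39. Mttp, the triglyceride transfer protein that loads VLDL, rose by 0.84. After median scaling, 4 of the list fell and 4 rose against GFP, while on the deposited scale 10 fell and 4 rose, so the balance in that comparison depends on the scaling. Against vehicle these settings gave 9 fallen and 2 risen, and 12 fallen and 2 risen.

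The C/EBP list, 19 genes tested, had 6 fallen and 4 risen against GFP and 9 fallen and 4 risen against vehicle. Cdkn1a, encoding the cell cycle inhibitor p21, rose by 2.32 against GFP and 3.4 against vehicle, and had risen by 1.08 ± 0.18 in GFP against vehicle (SE; limma adjusted p = 0.00321). Saa3, an acute phase gene, rose by 2.37 and 2.66. Tat, a gluconeogenic aminotransferase, fell by 1.1 against vehicle, and by 0.69 ± 0.18 in GFP against vehicle (SE; limma adjusted p = 0.0472). The call of Tat in GFP against vehicle was lost in 6 of 10 alternative settings and in 12 of 14 fits leaving out an array. With arrays at the same median the list had 1 fallen and 4 risen against GFP, and on the deposited scale 7 fallen and 4 risen.

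The FOXA and ONECUT1 targets, 14 tested, had 1 fallen and 2 risen against GFP and 4 fallen and 1 risen against vehicle. On the deposited scale these counts were 5 fallen and 3 risen, and 9 fallen and 1 risen, and at the same median 0 and 3, and 5 and 1, so the balance against GFP depends on the scaling. Cpt1a, the gate of mitochondrial fat oxidation, fell by 0.39 and 0.41, Pck1 of gluconeogenesis by 0.53 against vehicle, and G6pc rose by 0.77 against GFP. Afp, the fetal serum protein that FOXA factors help activate, averaged 10.23 on Jnk1, 4.33 on GFP and 3.64 on vehicle, a rise of 5.90 ± 0.28 over GFP (SE). Of the 7 hepatoblast genes on the array, Dlk1, Epcam and Sox9 lay below the filter. The other 4 read higher under Jnk1 than under GFP, Igf2 by 2.55, Gpc3 by 1.23 and Igf2bp3 by 0.93 beside Afp. The GFP means of Afp, Igf2 (4.69) and Igf2bp3 (4.48) lay under the lowest mean intensity kept, 28.4, so these genes passed the filter through the Jnk1 arrays, and neither their count nor the size of their differences is support for a change of the list.

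Genes of bile acid synthesis, conjugation and transport, read with the FXR and LRH-1 targets, gave 8 fallen and 3 risen of 23 against GFP and 11 fallen and 4 risen against vehicle. Slc27a5, the bile acid CoA ligase, fell by 0.66 and 0.81, Baat, which conjugates bile acids to taurine, by 0.54 and 0.57, and Fetub, a secreted fetuin that FXR induces, by 0.71 and 1.02. Akr1d1, the steroid 5 beta-reductase of bile acid synthesis, rose by 1.18 and 0.97, and Apoc2, the lipoprotein lipase cofactor and FXR target, by 0.55 and 0.57. With arrays at the same median, 3 fell and 5 rose against GFP, and on the deposited scale 11 fell and 5 rose. Of the named FXR targets, Fetub thus fell and Apoc2 rose beside the small rise of Nr1h4. Nr0b2, also on this list, rose by 2.20 and 2.77, with the limits given above. The list pools FXR targets with other bile acid genes, so its counts are not counts of FXR targets.

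Markers of other liver cells also differed between the groups, and fewer cells cannot be told apart from less RNA per cell. Of all genes, 16.5% fell against GFP and 19.3% against vehicle. Of 9 Kupffer cell and macrophage markers tested, 7 fell against GFP and 4 against vehicle, and their summed level was 11.39 to 11.68 on Jnk1, 12.25 to 12.40 on GFP and 11.47 to 12.29 on vehicle. Between GFP and vehicle, 2 of them rose, Mpeg1 (1.56) and Cd5l (0.86), and 2 fell, Clec4f (-1.98) and Vsig4 (-2.06). The summed level therefore hides opposite changes. Of 6 endothelial markers, 3 fell against GFP and 4 against vehicle, with sums of 9.41 to 9.65 on Jnk1, 9.80 to 10.08 on GFP and 10.00 to 10.07 on vehicle. Of 4 stellate markers, 2 fell in either comparison, with a median sum of 10.37 on Jnk1, 10.89 on GFP and 10.84 on vehicle. Neutrophil markers had none called by limma of 3 (1 at an unadjusted p under 0.05 in either Jnk1 comparison), T and NK markers 1 risen of 2 against vehicle (Nkg7, by 2.17), pancreas markers 1 risen of 2 and intestine markers 1 fallen of 1 in both Jnk1 comparisons. In GFP against vehicle Nkg7 had a difference of 1.93 ± 0.23, Cdh5, an endothelial gene, of -0.55 ± 0.13 and Col3a1, a stellate gene, of 0.64 ± 0.13 (SE; limma adjusted p = 0.000118, 0.0267 and 0.0131). The vehicle mean of Nkg7, 3.69 on the log2 scale, lay under the lowest mean intensity kept, 28.4, so Nkg7 passed the filter through the shRNA arrays. Of the 6 T and NK markers, 4 lay below the filter. Neither the call of Nkg7 nor the size of its differences is support for a change of that list. The part of these cell types in the members' values was not tested.

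The genes whose profiles lay nearest to each called member, by root mean square distance of centred log2 values over the 14 arrays, were found among 8026 other genes. For Hnf4a they were Pdxdc1, Tram1 and Uso1, each at 0.07 where the median gene lay at 0.38. For Cebpa they were Pex6 and Tle5 at 0.17 and Nucb1 at 0.18 (median 0.44), and for Foxa2 Plbd2 at 0.16, Nosip at 0.20 and Micos10 at 0.21 (median 0.51). For Nr1h4 they were Zcchc9 and Tmem185a at 0.09 and Xpo5 at 0.10 (median 0.35). Cebpb had Ube2e3 and Rap1a at 0.10 and Steap4 at 0.11 (median 0.32). Foxa1 had Mxra8 at 0.21 and Ssbp3 and Car5a at 0.22 (median 0.50), and Foxa3 had Wwp1, Klhl5 and Akirin2 at 0.15 (median 0.37). No member was among the 3 nearest genes of another.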

How the data were processed

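The authors deposited an intensity on a linear scale for each of 22690 probe sets in 14 samples. The sources used here do not name the software that made it, a background correction or detection calls. Per the labels' protocols, total RNA came from pulverized liver and carried a biotin label. Samples were grouped by their titles. The members, gene lists and named genes were chosen with earlier results of these data known.

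Array medians spanned 0.48 on the log2 scale, so the deposited intensities were quantile normalized, floored at the 5th percentile (2.01) and log2 transformed. The 64 control probe sets and the 40% of the others with the lowest mean were left out, which kept 13575 with a mean intensity of at least 28.4. Without detection calls, a level near that value has no bound on background. Group means over all 14 arrays were fitted with limma 3.58.1 in R 4.3.3 (eBayes with trend, 11 residual and 4.94 prior degrees of freedom), with Benjamini-Hochberg adjustment over all kept probe sets and a threshold of 0.05. Differences are on the log2 scale. Symbols came from the platform annotation, which can be dated: 20393 probe sets had 1 symbol, 691 several and 1606 none, and only those with 1 were named. From each list the named genes were up to 6 with the smallest p among those called in a comparison, plus Alb, Ttr, Apoa1 and Afp.

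The fit was tested on simulated data with independent normal noise and 200 changed probe sets of 13575. There the Jnk1 against GFP comparison recovered 52.8% of changes of 0.5 on the log2 scale, 79.4% of 1 and 93.3% of 2, with 11 false calls. In the measured values 33.1% of probe sets were called in that comparison. The adjustment depends on the share changed, so these rates need not hold for the measured values. Same-numbered arrays of different groups did not deviate together (r from -0.24 to 0.12 over 13 pairs), so the numbers were not used as pairs. Alternatives were the deposited scaling, scaling to the same median, other filters, a pseudocount of 16, no trend, array weights, fits of 2 groups, a replicate block, spike-in level as a covariate and each array left out.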

Additional observations from a re-analysis of the deposited data

Results flagged for a closer look

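Of 51 groups of member values examined, 3 held an array far from the others, where chance gives about 2.5 (1 in 20). Foxa1 was highest on Jnk1 array 1, at 8.08, with the other Jnk1 arrays at 7.32 to 7.47. Foxa2 was lowest on Jnk1 array 2, at 7.39, with the others at 8.05 to 8.31. Nr5a2, on probe set 1456521_at, was lowest on Jnk1 array 3, at 7.64, with the others at 7.78 to 7.82. Jnk1 arrays 1 and 2 had the lowest and highest spike-in levels of their group, 7.89 and 8.76. With that level as a covariate Foxa1 differed by -0.43 from GFP (limma adjusted p = 0.381) and by -0.98 from vehicle (limma adjusted p = 0.028), and Foxa2 by 0.23 (limma adjusted p = 0.606) and 0.19 (limma adjusted p = 0.648).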

How the results depend on the processing

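A covariate for spike-in level left calls for fewer members: 2 member probe sets were called against GFP and 4 against vehicle, with 2172 and 2858 called in all. Cebpa was then 0.00 from GFP and -0.35 from vehicle, and Nr5a2 -0.02 (1420410_at) and -0.10 (1456521_at) from GFP. Jnk1 array 2 alone, chosen after seeing the data, gave 2 member calls in either comparison and 1330 and 1906 in all, with Cebpa at -0.26 from vehicle and Cebpb at 0.03 and 0.23 from GFP. The 2 Hnf4a probe sets called against GFP were lower in every setting, with no call for 1427001_s_at at the same median.

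With arrays at the same median, 5 member probe sets were called against vehicle, and differences from GFP turned sign for Cebpb (0.05 and 0.21), Foxa1 (0.01), Nr5a2 1449706_s_at (0.07) and Onecut1 1421447_at (0.04). As deposited, Cebpb 1427844_a_at turned to 0.04 from GFP, and Foxa2 to 0.01 in GFP against vehicle. With array weights Hnf4a 1427000_at and Cebpb 1427844_a_at stood at 0.00 from GFP, and Hnf4a 1427000_at at 0.03 in GFP against vehicle. With a replicate block Cebpb 1427844_a_at turned to 0.01 from GFP and Foxa2 to 0.00 in GFP against vehicle. The block gave 5, 10 and 0 member calls in Jnk1 against GFP, Jnk1 against vehicle and GFP against vehicle, and 4101, 4825 and 247 calls in all. Fits of 2 groups gave 209 calls in GFP against vehicle. The causes were not tested.

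Leaving out each array in turn moved calls over all probe sets in GFP against vehicle to 198 to 383 (the lowest without GFP array 5), and its member calls to 0 to 1 (without vehicle array 1 or GFP array 1). The within-array ratios against vehicle ranged from -0.73 to -0.36 for Cebpb minus Cebpa, from -1.48 to -1.28 for Foxa1 minus Foxa2 and from -1.21 to -0.93 for Foxa3 minus Foxa2. The permutation adjusted p of all 3 was 0.0476 without Jnk1 array 2, the Jnk1 array nearest the controls in spike-in level. Foxa3 minus Foxa2 in GFP against vehicle ranged from -0.25 to 0.08. Signs of uncalled differences also turned. From GFP, Hnf4a 1427000_at ranged from -0.04 to 0.17, Cebpb 1427844_a_at from -0.12 to 0.10, Nr5a2 from -0.08 to 0.11 (1456521_at) and -0.22 to 0.13 (1449706_s_at), and Onecut1 from -0.40 to 0.12 (1450252_at) and -0.35 to 0.16 (1421447_at). From vehicle, Hnf4a 1427000_at ranged from 0.00 to 0.12. In GFP against vehicle the ranges were -0.12 to 0.00 (Hnf4a 1427001_s_at), -0.13 to 0.08 (Hnf4a 1427000_at), -0.12 to 0.16 (Foxa2) and -0.37 to 0.14 (Onecut1 1421447_at).

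The number of arrays and the missing detection calls limit precision, above all near the filter.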
